A study of Mus musculus with 12 samples.

Results

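Extracellular purine signalling was followed through 10 genes in mouse peritoneal macrophages: the ATP-gated channels P2rx4 and P2rx7, the nucleotide receptors P2ry2, P2ry6, P2ry13 and P2ry14, the adenosine receptors Adora2a and Adora2b, and the surface enzymes Entpd1 and Nt5e. Their probes were found by symbol, through RefSeq names, and the set itself was drawn up with earlier results of these data known. All 10 had a probe, 13 probes in all, out of 55681 probes on the array. A gene was tested if a probe of it stood well above background in every array of some group, which 11 probes of 8 of these genes did. These 8 were tested among 13168 genes, and P2ry13 and Nt5e were not tested.

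ATP and other nucleotides leave stressed or activated cells through channels and act as signals outside them. P2X receptors are ion channels opened by ATP, P2Y receptors are G protein-coupled receptors for nucleotides, and surface enzymes break ATP down stepwise to adenosine, which acts on receptors of its own. In macrophages ATP on P2rx7 is known as a trigger of inflammasome activation, and adenosine on Adora2a is known to restrain inflammatory cytokines.

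Cells of wild-type C57BL/6 mice were compared in 3 groups of 4 arrays. The design text calls the control group a vehicle control, without naming the vehicle, and the 4 samples of each group biological replicates. The group LPS_IFNg received 100 ng/ml of lipopolysaccharide (LPS, from the bacterial outer membrane) with 20 ng/ml of interferon gamma (IFNγ). The group LPS_IFNg_emodin received the same together with emodin, a plant anthraquinone, at 50 μM. No group with emodin alone was analysed here. All were harvested after 20 hours, following removal of cells that had not attached and a night without serum. The treated groups came from female mice 9 weeks old, and the controls from mice 8 weeks old of which replicates 1 and 2 are labelled female and 3 and 4 male. The series title asks whether emodin inhibits the activation of these cells.

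Xist and the Y-linked genes Ddx3y and Eif2s3y went against the labelled sex on 4 arrays, replicate 3 of both treated groups and control replicates 3 and 4, while Kdm5d and Uty were not well above background on any array. Each result on the members was therefore also computed lacking replicate 3 of both treated groups and with the female-labelled controls only. The labels tie no sample to an animal, so each p-value speaks only of how much these cultures or arrays vary, with 4 per group limiting its precision. The design text names a blood neutrophil where the sample labels name macrophages. The 9 measured genes of a 10-gene macrophage list were all well above background, with high levels of Adgre1, Csf1r and Lyz2, and the neutrophil list was mixed. Of its genes, Csf3r lay between 6.01 and 7.10 on the log2 scale used below, Elane between 2.88 and 4.47 and S100a8 between 2.64 and 3.95, while Mpo lay between -5.53 and -3.07, Ngp was never well above background, and Ly6g had no matching probe. On single arrays 45.4% to 50.8% of probes passed this background criterion.

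Levels below are log2 signal minus the 75th percentile of the same array, so that 0 is the level of that percentile, and they are compared between groups and not between genes. The values of the 8 tested genes on every array are plotted by group.

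**Figure D1:**
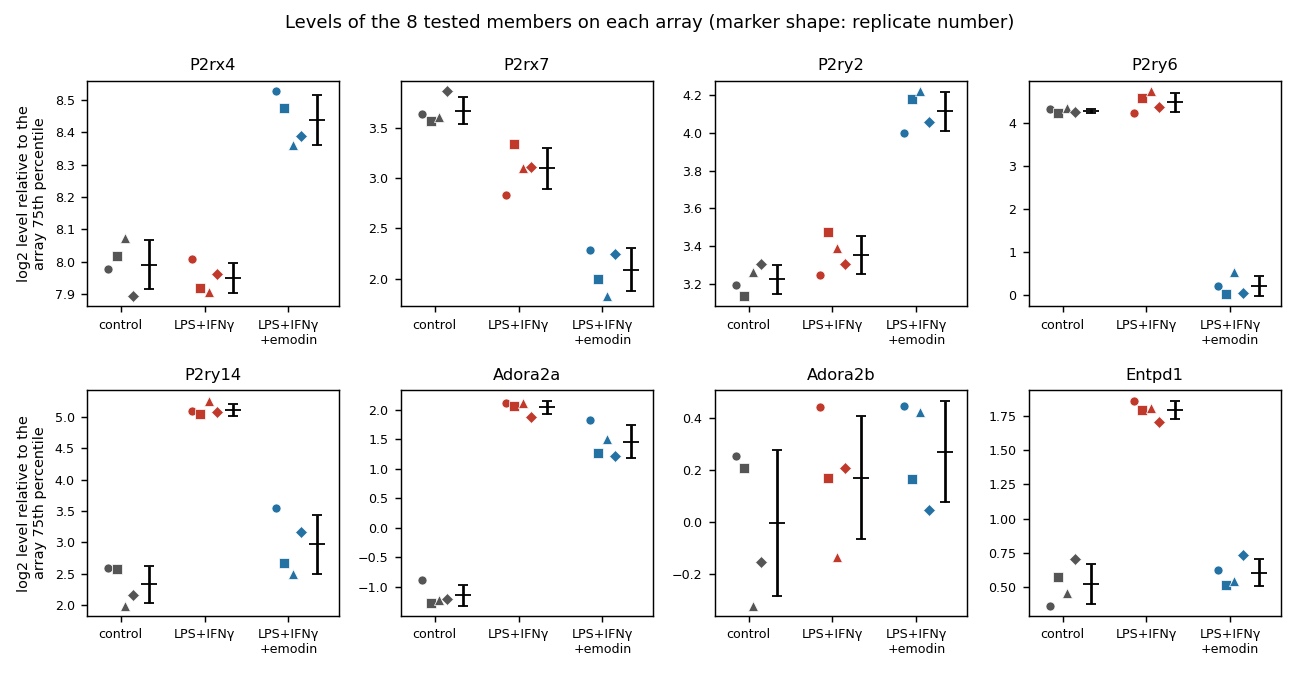
Log2 level relative to the array's 75th percentile for the 8 tested genes, with 4 arrays per group, marker shapes for replicate numbers, and bars for the mean and SD. P2ry14, Adora2a and Entpd1 were high with LPS and IFNγ, and P2ry6 was at 0.03 to 0.53 on the emodin arrays against 4.23 to 4.73 on the other 8.

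LPS and IFNγ raised P2ry14, Adora2a and Entpd1 and lowered the P2rx7 probe used for the gene, and left P2rx4, P2ry2, P2ry6 and Adora2b without a call. With emodin P2ry6, P2ry14, Entpd1 and Adora2a fell under the percentile scaling. Spike-in scaling lowered the emodin difference of every member by the same amount, so their falls under it were fixed in advance. P2ry2 and P2rx4 rose with the percentile scaling but passed no test with spike-ins, at 0.07 and -0.20 on the log2 scale, and the P2rx4 difference was 0.01 with quantile scaling. P2rx7 fell by the probe used for the gene and rose by its other 2 probes. Against control, 4 of the 8 tested genes were called at an adjusted p under 0.05 (3 higher, 1 lower), beside 69.0% of all genes tested (34.1% higher, 34.9% lower). With emodin against LPS_IFNg, 7 of 8 were called (2 higher, 5 lower), beside 72.0% of all genes (36.1% higher, 36.0% lower). With emodin against control, 6 of 8 were called (4 higher, 2 lower), beside 78.0% of all genes (39.8% higher, 38.2% lower). These shares are near the background, so the counts are no result about these genes, and the sizes and directions below are. Each pair of these comparisons shares the arrays of 1 group. The median log2 change of the 8 genes was 0.18 against control, where that of all genes was -0.03, and -0.80 with emodin against LPS_IFNg, where that of all genes was 0.01.

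Signal was lower on the emodin arrays, which bears on every direction in that comparison. Before any scaling the median tested gene had a log2 signal lower by 0.89 ± 0.10 (SE; exact two-sided permutation p = 0.0286, the smallest that 4 against 4 arrays can give) than on the LPS_IFNg arrays, with group means of 10.0 and 10.9. The spike-ins, RNAs added in a fixed mix, differed by -0.09 ± 0.06 (exact permutation p = 0.2). Paired by replicate number, the spike-in difference was lower in 4 of 4 pairs (-0.13 to -0.04, mean -0.09 ± 0.02) and so was that of the median gene, each with an exact sign-flip p of 0.125, the smallest that 4 pairs can give. Each within-array shift below whose unpaired p with emodin is 0.0286 likewise had 1 sign in 4 of 4 pairs and a paired p of 0.125. Scaling by the 7 spike-in probes moved the median gene to -0.67 on the log2 scale, with 9.3% of genes called higher and 65.6% lower, and under it 0 of the 8 genes rose and 6 fell. The spike-in signal itself differed by 2.59 between LPS_IFNg and control, so this scaling was not applied to comparisons with control. Controls also lay alone on a separate slide and scan, so slide and stimulation cannot be told apart, and both treated groups shared the other slide.

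Adora2a, an adenosine receptor, rose with LPS and IFNγ and was lower again with emodin. This receptor couples to the G protein that stimulates cAMP production. Its log2 level was -0.89, -1.27, -1.23 and -1.20 on control arrays, 2.11, 2.07, 2.11 and 1.87 on LPS_IFNg arrays, and 1.83, 1.27, 1.496 and 1.22 on emodin arrays. No value of one group fell within another, and a lack of overlap was seen for 64.4% of all genes in the first comparison, 67.6% in the second and 72.5% with emodin against control. The level rose 9.13-fold with LPS and IFNγ (log2 change 3.19 ± 0.13, adjusted p = 1.39e-09). With emodin it fell 1.501-fold from there (-0.59 ± 0.13, adjusted p = 0.00192; -1.27 with spike-in scaling) and stayed 6.08-fold above control (adjusted p = 4.64e-09).

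Adora2b, the adenosine receptor of lower affinity, lay between -0.32 and 0.25 on control arrays, -0.14 and 0.44 on LPS_IFNg arrays, and 0.05 and 0.45 on emodin arrays, with all 3 groups overlapping. Its difference was 0.17 with a 95% interval of -0.17 to 0.52 for LPS_IFNg against control (adjusted p = 0.347), and 0.10 with an interval of -0.25 to 0.45 with emodin (adjusted p = 0.581). A second Adora2b probe gave 0.53 with emodin (adjusted p over all kept probes 0.0122) and -0.15 with spike-in scaling (adjusted p = 0.376). The difference between the 2 probes shifted within arrays by -0.43 ± 0.06 with emodin (exact permutation p = 0.0286). With spike-in scaling the first probe fell by 0.58 (adjusted p = 0.00231). The direction for Adora2b with emodin thus depended on the scaling and was the same for both probes, while the size and the call depended on the probe.

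P2ry14, the receptor for UDP-glucose, and Entpd1, which cleaves extracellular ATP and ADP to AMP, were both high with LPS and IFNγ and low on the emodin arrays. P2ry14 read 2.59, 2.58, 2.00 and 2.16 on control arrays, 5.09, 5.04, 5.26 and 5.07 with LPS and IFNγ, and 3.54, 2.67, 2.50 and 3.16 with emodin. The LPS_IFNg arrays stood above all others, and control and emodin arrays overlapped. P2ry14 rose 6.87-fold with LPS and IFNγ (log2 change 2.78 ± 0.21, adjusted p = 2.39e-07) and fell 4.43-fold with emodin (-2.15 ± 0.21, adjusted p = 2.41e-06; -2.83 with spike-in scaling). It was called above control with emodin (0.64 ± 0.21, adjusted p = 0.0157), a call lost against the female-labelled controls only (0.38, adjusted p = 0.183) and with the percentile taken over detected probes (0.44, adjusted p = 0.0652).

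Entpd1 read 0.37, 0.57, 0.46 and 0.71 on control arrays, 1.86, 1.79, 1.80 and 1.70 with LPS and IFNγ, and 0.63, 0.52, 0.55 and 0.74 with emodin. Its rise was 2.40-fold (log2 change 1.27 ± 0.08, adjusted p = 6.89e-08) and its fall with emodin 2.27-fold (-1.18 ± 0.08, adjusted p = 1.57e-07). Emodin and control arrays overlapped, with a difference of 0.08 and a 95% interval of -0.10 to 0.26 (adjusted p = 0.388). Nt5e, the enzyme that turns AMP into adenosine, did not rise well above background anywhere, with log2 readings of -6.94 to -5.51, so no level or difference is given.

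Markers of other cells moved between the same groups. The summed linear level of the 13 mesothelial and fibroblast genes, in units of the array's 75th percentile, was 17.4 to 75.6 on control, 70.3 to 134.9 on LPS_IFNg and 10.9 to 35.6 on emodin arrays, and every gene of that list was well above background on some array. On LPS_IFNg arrays most of this sum was Dcn, with a mean log2 level of 6.02, and Col1a2, with 4.89. Of 12 tested genes of the list 3 rose and 6 fell with LPS and IFNγ (median log2 change -1.08), and 0 rose and 6 fell with emodin. That of the 7 dendritic cell genes was 0.36 to 0.578, 7.83 to 15.1 and 5.03 to 11.9, with Xcr1 never above background. Most of that sum with LPS and IFNγ was Ccr7, which rose by 5.56 ± 0.33 with LPS and IFNγ and differed by -0.54 ± 0.33 with emodin (adjusted p = 0.16). Of the other 4 tested dendritic cell genes, Flt3, Zbtb46 and Clec9a were called higher with LPS and IFNγ and lower with emodin, and Cd209a the reverse. Cd209a was not well above background in either treated group, so its call with emodin rests on readings at background. A second Zbtb46 probe went the other way with emodin, averaging -3.55 with LPS and IFNγ and -2.48 with emodin. Macrophage genes summed to 549 to 566, 379 to 438 and 458 to 550. The 8 resident peritoneal macrophage genes summed to 34.87 to 53.09, 10.35 to 14.69 and 16.36 to 35.91. Of these 8, 2 rose and 6 fell with LPS and IFNγ, and 4 rose and 4 fell with emodin. T and NK cell genes summed to 8.24 to 8.72, 12.14 to 14.94 and 12.37 to 15.6, with Cd247 and Cd8a never above background. Neutrophil genes summed to 92.5 to 111, 94.9 to 106 and 106 to 170, most of it Csf3r. With the percentile scaling Csf3r rose by 0.45 ± 0.15 with emodin, and Elane rose by 1.13 ± 0.19 (0.45 with spike-in scaling, adjusted p = 0.0865). Of 8 tested neutrophil genes, 2 rose and 4 fell with LPS and IFNγ (median log2 change -0.47). With emodin 6 rose and 2 fell (median 1.22), and 4 rose and 2 fell with spike-in scaling (median 0.54). Mpo, S100a9 and Ltf were well above background on no LPS_IFNg array, so the sizes of their rises, which enter these medians, rest on readings at background. With the percentile scaling those rises were at least 1.57-fold, 1.61-fold and 1.17-fold. B cell genes summed to 4.92 to 5.54, 1.998 to 3.102 and 2.44 to 2.89, with Blk never above background. Their part in the changes of P2ry14, Entpd1 and Adora2a was not tested, and in bulk RNA fewer cells of a type and less RNA per cell cannot be told apart.

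RefSeq promoters of GRCm38.p6 (250 bases before to 50 after a start) were available for 8 members with 14 promoters, and held no entry for Adora2a and P2ry6. They were searched on both strands for the ISRE core (GAAA and GAAA with 2 bases between, in 3.443% of all 32851 promoters of this length), the cAMP response element CRE (TGACGTCA, in 1.79%), AP-1 (TGANTCA, in 7.808%) and kappaB (in 4.505%). Of the 14, 3 held an AP-1 match and none held another of these letter patterns. P2ry14 has 4 of these promoters. The one at chr3:59153443-59153742 (minus strand) is shown because this receptor rose with LPS and IFNγ and fell with emodin, with its AP-1 match 202 bases before the start in capitals. Another P2ry14 promoter, not shown, held an AP-1 match 144 bases before its start. A match is a description of the letters only.
P2ry14: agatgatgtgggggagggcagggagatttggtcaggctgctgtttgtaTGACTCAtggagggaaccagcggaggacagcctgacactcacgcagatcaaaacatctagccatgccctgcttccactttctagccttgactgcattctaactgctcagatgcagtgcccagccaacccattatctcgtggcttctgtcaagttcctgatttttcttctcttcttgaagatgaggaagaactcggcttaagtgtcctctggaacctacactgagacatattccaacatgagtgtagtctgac

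P2ry6 and P2ry2 are neighbours on chromosome 7 with no protein-coding gene between them. With the percentile scaling they went opposite ways with emodin. P2ry6 is the receptor for UDP, and P2ry2 responds to ATP and UTP. P2ry6 read 4.31, 4.23, 4.33 and 4.25 on control arrays, 4.24, 4.57, 4.73 and 4.36 on LPS_IFNg arrays, and 0.21, 0.03, 0.53 and 0.06 on emodin arrays. Control and LPS_IFNg overlapped, and all emodin arrays lay far below both. P2ry6 fell 19.2-fold with emodin (log2 change -4.26 ± 0.13, adjusted p = 3.31e-10; -4.95 with spike-in scaling) and was 16.8-fold under control (adjusted p = 8.57e-11). Its difference with LPS and IFNγ alone was 0.19 with a 95% interval of -0.08 to 0.47 (adjusted p = 0.192).

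P2ry2 read 3.19, 3.14, 3.27 and 3.30 on control arrays, 3.25, 3.48, 3.39 and 3.30 on LPS_IFNg arrays, and 4.00, 4.18, 4.22 and 4.06 on emodin arrays. It rose 1.69-fold with emodin (log2 change 0.76 ± 0.08, adjusted p = 2.82e-06) but was at 0.07 with spike-in scaling (adjusted p = 0.653), so its rise is relative to the array's other genes. Its difference with LPS and IFNγ alone was 0.13 with an interval of -0.04 to 0.30 (adjusted p = 0.146). Subtracting a constant from an array, as the percentile and spike-in scalings do, does not alter the within-array difference between P2ry6 and P2ry2. Quantile scaling can alter it. The difference shifted by -5.02 ± 0.13 with emodin (exact permutation p = 0.0286, 0.0429 after Benjamini-Hochberg adjustment over 12 such tests). With LPS and IFNγ it shifted by 0.06 (exact permutation p = 0.6).

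P2ry13, a receptor for ADP, lay near background. It was well above background on control replicates 2 and 4 only, at -4.57 and -4.31, and read -5.09 to -4.60 on LPS_IFNg arrays and -6.78 to -6.37 on emodin arrays. No fold is given for it. P2ry13 neighbours P2ry12 on chromosome 3.

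P2rx4 and P2rx7, the ATP-gated channels, are neighbours on chromosome 5. P2rx4, known from lysosomes and the cell surface, read 7.98, 8.02, 8.07 and 7.89 on control arrays, 8.01, 7.92, 7.91 and 7.96 with LPS and IFNγ, and 8.53, 8.47, 8.36 and 8.39 with emodin. Its difference with LPS and IFNγ was -0.04 with an interval of -0.18 to 0.10 (adjusted p = 0.588), though with quantile scaling it fell by 0.20 (adjusted p = 0.018). With emodin it rose 1.40-fold (log2 change 0.49 ± 0.06, adjusted p = 2.79e-05), and that difference was 0.01 with quantile scaling (adjusted p = 0.901) and -0.20 with spike-in scaling (adjusted p = 0.156). The rise of P2rx4 therefore rested on the percentile scaling.

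P2rx7, by the probe for NM_011027, which had the highest mean of its 3 probes, read 3.64, 3.57, 3.60 and 3.86 on control arrays, 2.83, 3.34, 3.102 and 3.11 with LPS and IFNγ, and 2.28, 2.00, 1.83 and 2.24 with emodin. The groups did not overlap, in the order control, LPS_IFNg, emodin. The reading fell 1.49-fold with LPS and IFNγ (log2 change -0.57 ± 0.13, adjusted p = 0.00171) and 2.01-fold with emodin (-1.01 ± 0.13, adjusted p = 2.01e-05; -1.69 with spike-in scaling). Within arrays, this P2rx7 probe shifted against P2rx4 by -1.496 ± 0.15 with emodin and by -0.53 with LPS and IFNγ (exact permutation p = 0.0286 for each). That shift was not computed for the other probes of P2rx7.

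The other 2 probes of P2rx7, annotated to the transcripts NM_001038845 and NM_001038887, rose with emodin. The NM_001038887 probe read 0.20, 0.09, 0.19 and 0.16 on control arrays, 0.18, 0.33, 0.00 and 0.17 with LPS and IFNγ, and 1.52, 1.18, 1.15 and 1.54 with emodin, so that only the emodin arrays stood apart. It rose by 1.18 ± 0.11 on the log2 scale with emodin (adjusted p over all kept probes 1.53e-06), and by 0.49 with spike-in scaling (adjusted p = 0.00987). The NM_001038845 probe read -1.21, -1.19, -1.19 and -1.22 on control arrays, -1.71, -1.59, -1.75 and -1.82 with LPS and IFNγ, and -0.75, -0.95, -1.27 and -0.22 with emodin. It fell by 0.51 with LPS and IFNγ (adjusted p = 0.0201) and rose by 0.92 ± 0.17 with emodin (adjusted p = 0.000498), and was at 0.24 with spike-in scaling (adjusted p = 0.338).

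Within arrays the NM_011027 probe shifted with emodin by -2.18 ± 0.10 against the NM_001038887 probe and by -1.93 ± 0.17 against the NM_001038845 probe (exact permutation p = 0.0286 for each). With LPS and IFNγ those shifts were -0.58 (exact permutation p = 0.0286) and -0.06 (exact permutation p = 0.629). Between NM_001038845 and NM_001038887 the shift was -0.52 with LPS and IFNγ (exact permutation p = 0.0286) and -0.26 with emodin (exact permutation p = 0.143). The mean of the 3 probes gave 0.36 with emodin (adjusted p = 0.0174), so the direction for P2rx7 as a gene depends on which probe stands for it. Which part of the transcript each probe reads was not analysed here.

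**Figure D2:**
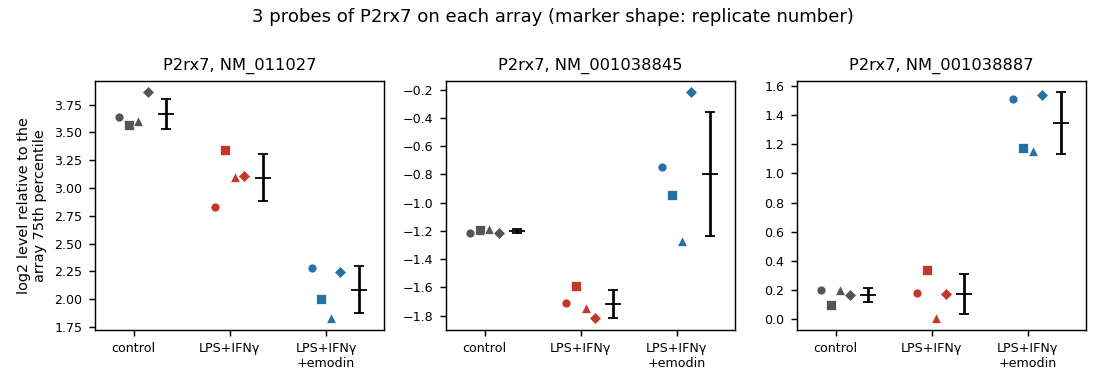
Log2 level of the 3 P2rx7 probes on each array, with marker shapes for replicate numbers and bars for the mean and SD of 4 arrays. The NM_011027 probe was lowest on the emodin arrays (1.83 to 2.28), and the NM_001038887 probe was highest there (1.15 to 1.54).

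RefSeq gives 2 promoters of P2rx7, shown because its transcripts' probes went different ways. The first lies at chr5:122643677-122643976 and the second at chr5:122650133-122650432, both on the plus strand of GRCm38.p6, and capitals mark the AP-1 match 249 bases before the first start.
P2rx7 first: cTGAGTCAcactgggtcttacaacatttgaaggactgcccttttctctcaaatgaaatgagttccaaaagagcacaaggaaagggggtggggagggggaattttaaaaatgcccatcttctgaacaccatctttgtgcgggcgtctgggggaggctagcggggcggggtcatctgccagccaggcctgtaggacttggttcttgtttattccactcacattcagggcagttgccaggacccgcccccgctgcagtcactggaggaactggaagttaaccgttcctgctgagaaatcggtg
P2rx7 second: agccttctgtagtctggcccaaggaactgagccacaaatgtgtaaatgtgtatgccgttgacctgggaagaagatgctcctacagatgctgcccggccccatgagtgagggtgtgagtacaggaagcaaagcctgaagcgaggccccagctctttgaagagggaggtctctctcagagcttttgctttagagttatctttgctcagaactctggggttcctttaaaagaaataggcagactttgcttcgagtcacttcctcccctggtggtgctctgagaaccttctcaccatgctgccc
The second held none of these motifs. The tables used here do not pair these promoters with the probes.

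**Figure D3:**
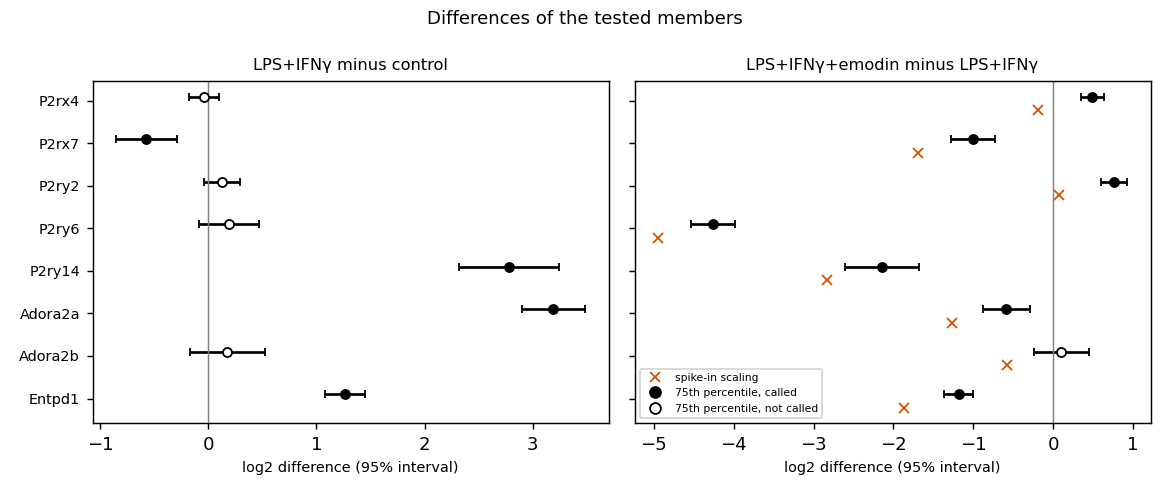
Log2 differences of the 8 tested genes with 95% intervals, for LPS_IFNg minus control (left) and emodin minus LPS_IFNg (right), filled where called, with crosses for spike-in scaling. P2ry6, P2ry14, Entpd1, Adora2a and the NM_011027 probe of P2rx7 lay below 0 with emodin under both scalings (the other 2 P2rx7 probes, not drawn, lay above 0). Spike-in scaling lowered all 8 genes by the same amount, so a fall could not turn under it. That shift took P2rx4 and Adora2b from above 0 to below it, and P2ry2 to near 0.

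Each member's nearest genes over the 12 arrays were found by Pearson correlation of log2 level, as a description over arrays that share 3 groups and 2 slides. P2ry6 was nearest to Dpysl2 (r = 0.997) and Dhodh (0.996). P2ry14 was nearest to Pla2g4a (r = 0.998) and Mt2 (0.994), and Adora2a to Ptgs2 (0.996) and Oasl1 (0.996). Entpd1 was nearest to Lrrk2 (r = 0.989) and Serpinb9 (0.987), P2ry2 to Pigm (0.995) and Scaf8 (0.993), P2rx4 to Sil1 (0.988) and Arl6ip1 (0.987), and P2rx7 to Zfp579 (0.992) and Ankrd44 (0.990). Adora2b had no gene above 0.845, that of AY074887, followed by Tmed3 at 0.835.

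Among the other receptors, Adora3, P2rx5, P2ry10 and P2ry10b fell with emodin. Every rise or fall named in the following lists passed the test over all genes. Of 15 other P2X, P2Y and adenosine receptors and close relatives, 9 were tested: 3 rose and 3 fell with LPS and IFNγ (median log2 change -0.19), and 2 rose and 4 fell with emodin (median -0.27; 1 rose and 6 fell with spike-in scaling). Adora3, the adenosine receptor coupled to inhibition of cAMP production, differed by -0.44 ± 0.19 with LPS and IFNγ (adjusted p = 0.0588, and 0.0152 without emodin replicate 1), and was well above background on no emodin array. With the percentile scaling its level there was at least 16.2-fold lower than with LPS and IFNγ (adjusted p = 8.17e-10). The smallest log2 difference of Adora3 among the alternatives run was -2.74. P2rx5, another ATP-gated channel, rose by 2.36 ± 0.17 with LPS and IFNγ and fell by 4.57 ± 0.17 with emodin, where 2 of 4 arrays were well above background, so that the size rests on readings at background (-3.14 with normexp). P2ry10, well above background only with LPS and IFNγ, was at least 3.42-fold higher there than in control and at least 2.29-fold lower with emodin than there. These bounds are those of the percentile scaling, and the smallest log2 differences among the alternatives were 1.18 and -0.72. The related P2ry10b fell by 2.45 ± 0.08 with emodin. P2ry10 and P2ry10b are near relatives whose probes may share signal.

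Of 16 other ectonucleotidases and phosphatases, 12 were tested: 5 rose and 5 fell with LPS and IFNγ (median 0.59), and 2 rose and 8 fell with emodin (median -1.17; 2 and 10 with spike-in scaling). Enpp4 rose 36.9-fold with LPS and IFNγ (log2 change 5.21 ± 0.16, adjusted p = 9.33e-11) and fell by 3.76 ± 0.16 with emodin. Cd38, which consumes NAD, rose 27.0-fold and fell by 1.55 ± 0.15. The acid phosphatase Acpp rose by 3.35 ± 0.20 and fell by 2.65 ± 0.20. Enpp1, which cleaves ATP to AMP and pyrophosphate, went the other way, with -2.74 ± 0.13 and then 2.26 ± 0.13.

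Of 25 genes of nucleoside transport and purine conversion, 21 were tested: 6 rose and 11 fell with LPS and IFNγ (median -0.40), and 3 rose and 16 fell with emodin (median -0.67; 1 and 18 with spike-in scaling). Pnp2, a purine nucleoside phosphorylase, rose by 4.35 ± 0.18 with LPS and IFNγ and fell by 2.48 ± 0.18 with emodin. The nucleoside carrier Slc28a2 rose by 2.39 ± 0.21 and fell by 3.58 ± 0.21. Pnp rose by 2.74 ± 0.10 and fell by 0.59 ± 0.10, but the mean of its probes gave 0.35 with emodin (adjusted p = 0.187), and it is nearly identical to Pnp2. Nt5c3, a cytosolic nucleotidase, rose by 2.41 ± 0.15 and fell by 0.67 ± 0.15.

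Of 9 channels of nucleotide release, 7 were tested: 4 rose and 2 fell with LPS and IFNγ (median 0.52), and 2 rose and 5 fell with emodin (median -0.88; 0 and 5 with spike-in scaling). Panx1, the ATP release channel, rose by 1.67 ± 0.12 with LPS and IFNγ and fell by 3.16 ± 0.12 with emodin. Calhm2 fell in both comparisons, by 1.91 ± 0.26 and by 3.95 ± 0.26, with 1 of 4 emodin arrays well above background, so that the size of the second rests on readings at background (-2.14 with normexp). The connexin Gja1 was at least 3.65-fold higher with LPS and IFNγ than in control, and at least 2.49-fold lower with emodin than with LPS and IFNγ. For Gja1 too the bounds are those of the percentile scaling, and the smallest log2 differences among the alternatives were 1.09 and -0.49. Lrrc8c rose by 2.44 ± 0.07 and fell by 0.23 ± 0.07 with emodin (adjusted p = 0.011), a call lost when both treated groups lacked replicate 3 (-0.19, adjusted p = 0.0702).

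Of 20 genes of cAMP synthesis and breakdown, which act after the adenosine receptors, 15 were tested: 6 rose and 6 fell with LPS and IFNγ (median -0.06), and 4 rose and 7 fell with emodin (median -0.48; 0 and 10 with spike-in scaling). The phosphodiesterase Pde4b rose by 3.35 ± 0.15 with LPS and IFNγ and fell by 1.35 ± 0.15 with emodin. Of the adenylyl cyclases, Adcy6 rose by 2.22 ± 0.43 and had 0.11 ± 0.43 with emodin (adjusted p = 0.834), but without LPS_IFNg replicate 3 the latter was 0.62 (adjusted p = 0.0461). Adcy4 rose by 1.80 ± 0.18 and again by 0.93 ± 0.18 with emodin, which was 0.24 with spike-in scaling (adjusted p = 0.303). Adcy3 was at least 1.40-fold lower with LPS and IFNγ than in control and not well above background in either treated group.

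**Figure D4:**
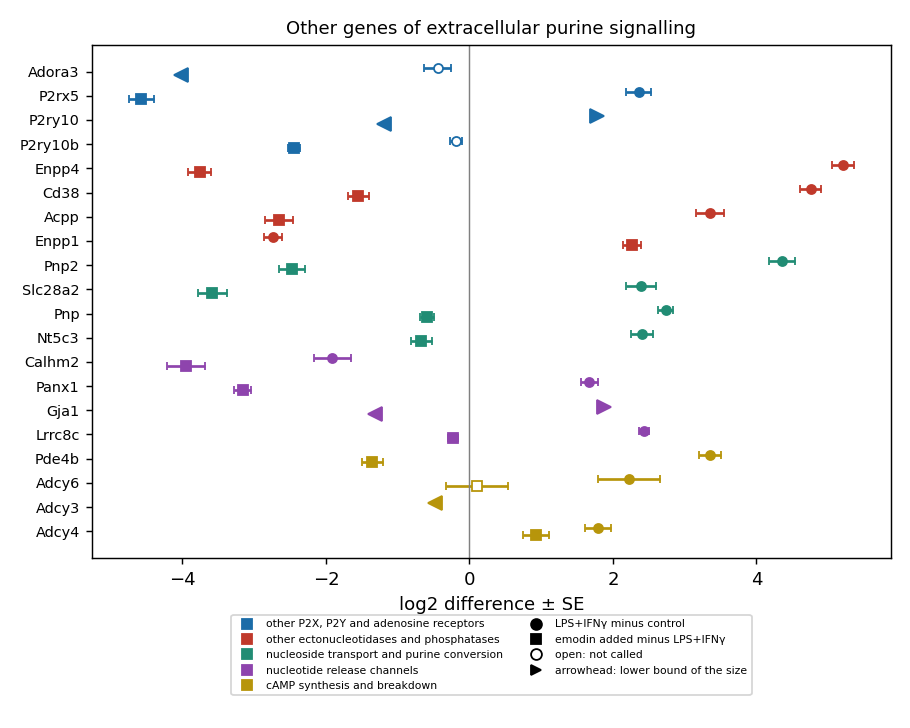
Log2 differences with SE of 20 other genes of the pathway, coloured by list. Circles show LPS_IFNg minus control and squares emodin minus LPS_IFNg (upper mark of a gene for the first comparison, lower for the second). Arrowheads show a lower bound on the size, under the percentile scaling, where 1 group was not well above background. Panx1, P2rx5, Enpp4 and Slc28a2 lay above 0 in the first comparison and below it in the second, and Enpp1 the other way.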

How the data were processed

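Gene expression was measured on 12 one-colour Agilent mouse arrays from 200 ng of RNA each. The deposited scanner files hold a background-subtracted processed intensity per spot, extracted, per the submitters' processing notes, with Agilent Feature Extraction 10.7.3.1. The authors' deposited value table holds log2 values, which followed the probe-centred log2 scanner signal (best correlation per column 0.9153 to 0.9685). Its column medians were -0.0316 to 0.0416, the columns of control replicates 1, 3 and 4 followed the scanner values of 4, 1 and 3, and it served only as an alternative.

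Of 62976 spots, 59305 were not controls, and 78 to 415 outlier spots per array were left out. Replicate spots were averaged per probe, and log2 intensities had their array's 75th percentile subtracted. Probes that stood well above background in every array of some group were kept (27375 of 55681, 17165 with a symbol). Accessions were matched to a RefSeq table of GRCm38.p6 for names only, since the array is annotated on mm9, which named 27509 probes and left 28172 unnamed. The probe with the highest mean stood for each of 13168 genes.

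limma 3.58.1 in R 4.3.3 was fitted to all 12 arrays with 3 group means (lmFit, contrasts, eBayes, 9 residual and 2.49 prior degrees of freedom), two-sided, with Benjamini-Hochberg adjustment over all genes. All adjusted p-values are limma's, those of single probes adjusted over the 27375 kept probes, and errors are standard errors with 4 arrays per group. Genes were called at an adjusted p under 0.05. A fold is a lower bound ("at least") where no array of the dimmer group had the probe well above background. The brighter mean was then set against a floor averaged over the dimmer arrays, each floor being that array's lowest signal passing the background criterion, or the probe's reading if higher. Such a bound holds for the percentile scaling only, and some alternatives gave smaller differences. Replicate numbers paired the treated groups, whose same-numbered arrays correlated in their deviations at 0.1503 to 0.2832, but not the controls. The code was tested on simulated data.

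The members and gene lists were chosen with earlier results of these data known. Besides the members, the checks of sex and cell type and the nearest genes, up to 4 genes of each pathway list were named, by the larger of their changes among called changes of at least 2-fold. Alternatives were other scalings (quantile, spike-in, percentile over detected probes, the deposited table), normexp background, no or a stricter filter, other probes, the replicate block, female-labelled controls, and leaving out arrays. Because the files held no mean signal, normexp used the median signal and the median background. A further motif and a neighbouring gene are not reported here.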

Additional observations from a re-analysis of the deposited data

Results flagged for a closer look

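A single array lay far from the other 3 of its group for 8 of 102 sets of 4 arrays examined, and chance gives about 5% of such sets. Adora2a read 1.87 on LPS_IFNg replicate 4, against 2.07 to 2.11 on the other LPS_IFNg arrays. Adora3 read -0.52 on LPS_IFNg replicate 3, against -0.17 to -0.11. On control replicate 4, Cd38 read -1.36 against -0.94 to -0.88, and Enpp1 read -0.96 against -0.74 to -0.69. Adcy6 read -1.36 on emodin replicate 2, against -0.91 to -0.84, and Adcy4 read -1.69 on emodin replicate 1, against -1.27 to -1.18. Xist, the RNA made from the inactive X chromosome, read -6.27 on emodin replicate 3 and -6.22 on LPS_IFNg replicate 3, against 0.37 to 1.08 and 0.10 to 0.26 on the other arrays of those groups. No call on a member was lost when both treated groups lacked replicate 3.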

How the results depend on the processing

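The counts of genes and of members called kept their size under every alternative run, within 1.5 times. Genes called numbered 7855 to 12633 for LPS_IFNg against control, 8182 to 9857 for emodin against LPS_IFNg and 8869 to 13618 for emodin against control, and members called 4 to 5, 6 to 8 and 5 to 7. With the replicate block on the 8 treated arrays, 9631 genes and 7 members were called with emodin, and the block changed no call on a member. Leaving out 1 array at a time gave 4, 7 and 6 members.

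Directions turned as follows, on the log2 scale. With spike-in scaling, emodin against LPS_IFNg gave -0.20 for P2rx4 and -0.58 for Adora2b. The mean of probes gave 0.36 for P2rx7 and 0.35 for Pnp in that comparison, and 0.0035 for P2rx7 against control. The NM_001038845 probe of P2rx7 gave 0.92 with emodin (0.24 with spike-in scaling, chosen after seeing the data) and 0.41 against control. The NM_001038887 probe gave 1.18 with emodin (0.49 with spike-in scaling), 1.18 for emodin against control and 0.0076 for LPS_IFNg against control. Against control, emodin gave -0.19 for P2rx4 with quantile scaling and -0.20 with the deposited table, and -0.47 and -0.49 for Lyz2. Normexp gave 0.60 for Adcy3 with emodin and 0.066 against control. Without replicate 3 of both treated groups Xist was 0.83 above control. Beyond the construction of each alternative the cause was not tested. P2ry13 and Nt5e are limited by signal near background.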
